A study of Mus musculus with 2 samples.

Results

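T cells with no detected transcript of the machinery of receptor gene rearrangement were examined among live cells of the neonatal mouse heart. A cell was a member if at least 2 of the 4 T cell genes Cd3d, Cd3e, Cd3g and Lck had a UMI (a unique molecular identifier, which counts 1 captured transcript), if Rag1, Rag2, Dntt and Ptcra all had 0 UMIs, and if the B cell gene Cd79a had 0 UMIs. The members were thus chosen by the measured UMIs of these 9 genes, whose levels describe the choice and are no finding. It was met by 179 of 13502 kept cells. Of these, 165 were among the 8511 kept cells of the postnatal day 7 (P7) library, or 1.94% (exact binomial 95% interval 1.66 to 2.25). The other 14 were among the 4991 kept cells of the P1 library, or 0.281% (0.153 to 0.470).

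The study sequenced single cells of P1 and P7 hearts. A single library was made at each age, from 3 pooled hearts of 1 litter. Hearts were digested in collagenase for 20 min at P1 and 45 min at P7, red blood cells were lysed, and live cells were sorted with a viability dye and no lineage marker. The study's methods call these mice intact, and neither they nor the labels gave a genotype or treatment for these hearts beyond age. With 1 library per age there were no replicates, so every interval below covers counting error only, ages cannot be told apart from libraries, litters or digestion times, and no p-value is given. Xist was at 0 UMIs in the P7 members while 120 of them had UMIs of Y-linked genes. In the P1 members Xist had UMIs in 7 cells and Y-linked genes were at 0, so the members of the 2 libraries differed in these sex genes as well as in age.

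As background, a T cell recognises antigen through its receptor, a pair of variable chains joined to constant parts encoded by Trac and Trbc1 or Trbc2, which is carried to the surface by the CD3 chains. Thymocytes cut and rejoin the receptor genes with the recombinase RAG1 and RAG2, pair an early beta chain with the surrogate chain encoded by Ptcra, and add bases with the enzyme encoded by Dntt. Cells that pass selection stop making these proteins, switch on homing and survival receptors such as CCR7, S1PR1 and the IL-7 receptor, and leave the thymus for the circulation. The thymus lies against the neonatal heart, so a heart preparation may hold thymic cells as well as T cells from blood or tissue, and their origin was not tested.

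Cd3d and Cd3g gave the first check of the label, because a set of cells carried these and neither of the other marker genes of the rule. Both genes are subunits of the CD3 complex and lie next to each other on chromosome 9 with their start sites head to head, 1355 bases apart. Cd3g was read from the minus strand (GENCODE gene at chr9:44969572-44980431, GRCm38) and Cd3d from the plus strand (chr9:44981786-44987339). Their promoters are shown from 250 bases before to 50 bases after the RefSeq start (build GRCm38.p6, 5′ to 3′ on the gene's strand), together with those of Ms4a4b and Il7r, the genes that set the P7 members apart from both comparison groups. Capitals mark the 5-base ETS core GGAAG or its reverse complement CTTCC. The Cd3g window is chr9:44980382-44980681 on the minus strand, the Cd3d window chr9:44981536-44981835 on the plus strand, the Il7r window chr15:9529827-9530126 on the minus strand and the Ms4a4b window chr19:11443308-11443607 on the plus strand.
Cd3g: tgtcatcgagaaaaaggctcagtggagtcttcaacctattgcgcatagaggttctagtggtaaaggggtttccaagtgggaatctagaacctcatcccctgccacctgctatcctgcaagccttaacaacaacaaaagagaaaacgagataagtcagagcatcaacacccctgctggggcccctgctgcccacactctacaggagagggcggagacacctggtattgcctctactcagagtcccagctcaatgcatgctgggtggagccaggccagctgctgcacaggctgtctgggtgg
Cd3d: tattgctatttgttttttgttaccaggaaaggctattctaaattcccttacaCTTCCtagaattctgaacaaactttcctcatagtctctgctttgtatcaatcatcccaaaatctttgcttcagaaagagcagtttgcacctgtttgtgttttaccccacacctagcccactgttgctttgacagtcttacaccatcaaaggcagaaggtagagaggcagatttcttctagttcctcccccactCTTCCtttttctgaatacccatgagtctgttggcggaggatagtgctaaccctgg
Il7r: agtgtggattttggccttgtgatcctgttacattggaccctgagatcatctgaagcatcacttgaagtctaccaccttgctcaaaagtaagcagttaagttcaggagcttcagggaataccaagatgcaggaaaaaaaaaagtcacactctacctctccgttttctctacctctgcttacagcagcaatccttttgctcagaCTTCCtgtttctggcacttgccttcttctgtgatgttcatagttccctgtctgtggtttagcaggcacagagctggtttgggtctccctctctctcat
Ms4a4b: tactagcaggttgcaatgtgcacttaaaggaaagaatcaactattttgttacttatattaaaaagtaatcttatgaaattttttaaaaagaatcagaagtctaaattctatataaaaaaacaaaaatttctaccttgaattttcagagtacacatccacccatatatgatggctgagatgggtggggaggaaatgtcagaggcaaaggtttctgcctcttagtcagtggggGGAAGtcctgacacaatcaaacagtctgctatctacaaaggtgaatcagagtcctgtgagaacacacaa
The core had 0 matches in the Cd3g window, 2 in Cd3d, 1 in Il7r and 1 in Ms4a4b. It also had a match in 71.4% of all 32851 RefSeq promoters of that length, so a match describes the letters and nothing about binding.

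Most P7 members were T cells by genes that the rule did not use. A receptor constant gene (Trac, Trbc1, Trbc2 or a gamma or delta constant gene) had a UMI in 158 of the 165 cells. All 147 members with at least 3 of the 4 markers did so, 125 of them with all 4. Against this, the same genes had a UMI in 8.26% of 2844 fibroblast-like and 4.79% of 3233 endothelial-like P7 cells, groups named from at least 3 of 5 fixed markers, with median depths of 16146 and 7805 UMIs per cell. After each cell was thinned to 2000 UMIs, the shares were 93.3% of 149 members, 1.42% of fibroblast-like and 1.59% of endothelial-like cells. The 18 members with exactly 2 markers were shallow, with a median of 1748 UMIs per cell, and 11 of them had a receptor constant UMI. Just outside the rule lay 253 P7 cells with a single marker, of which 31 had a receptor constant UMI.

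Some cells that met the rule went against its label. At P7, 6 members held 112 to 1351 UMIs of S100a9, a calcium-binding protein stored in neutrophils, and all 6 had only Cd3d and Cd3g of the 4 markers. Cd3e, Lck, Trac, Trbc1 and Trbc2 were at 0 in each of them, and 1 had 2 UMIs of gamma or delta constant genes. A single one had 8 UMIs of Il7r, and a single one 2 UMIs of Ms4a4b. The neutrophil granule genes Ngp and Camp reached 672 and 395 UMIs in 1 of these cells. At P1 this was true of nearly the whole group, since 12 of the 14 members held only Cd3d and Cd3g, no receptor constant gene, and UMIs of the myeloid adaptors Tyrobp (20 to 78) and Fcer1g (4 to 45). S100a9 ranged from 24 to 2164 UMIs in those 12 cells and was at 100 or more in 11. The P1 library therefore gave 2 members with a receptor transcript. The first had 57 Trbc1, 10 Trbc2, 4 Trac and 5 Cd8b1 UMIs among 2662. The second, a possible doublet by the definition below, had 4 UMIs of the gamma constant gene Tcrg-C1, 3 of Trbc1, 3 of Trbc2 and 2 of Trac among 8181, with 8 of Il7r, 10 of Rora and 3 of Gata3 and none of Lck.

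**Figure D1:**
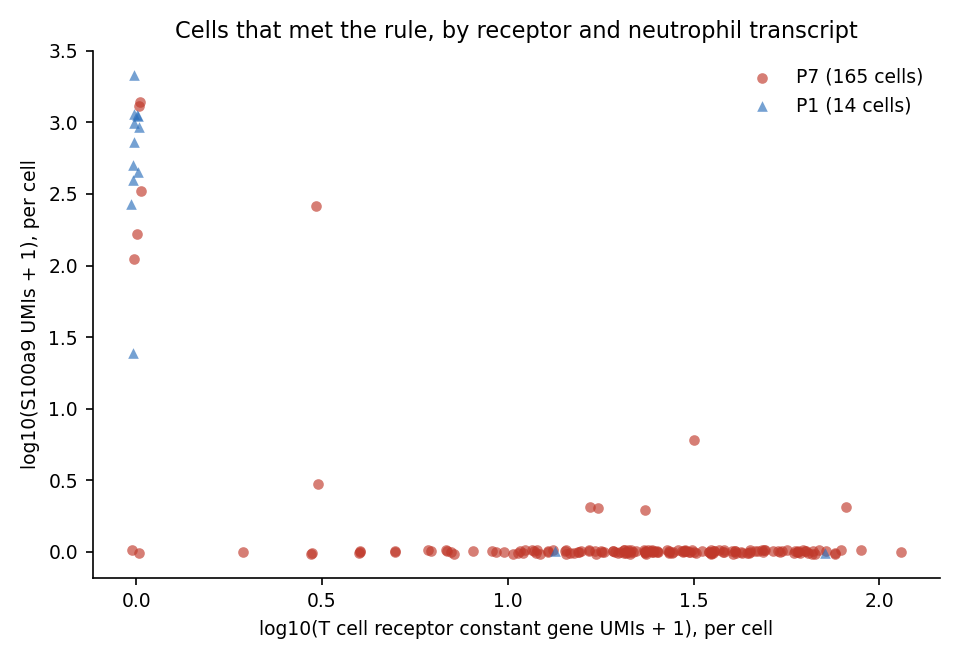
Receptor constant gene UMIs (horizontal) and S100a9 UMIs (vertical) of each cell that met the rule, both as log10 of the UMIs plus 1, for P7 (circles) and P1 (triangles), with points moved by at most 0.015 to separate ties. Of the 14 P1 cells, 12 stand at 0 receptor UMIs with S100a9 between 24 and 2164, whereas 158 of 165 P7 cells lie to the right of 0.

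Cd3d was in fact common in cells rich in S100a9, a pattern looked for after these members had been seen. At P7 it had a UMI in 30 of 42 such cells (71.4%, 55.4 to 84.3), and at P1 in 102 of 149 (68.5%, 60.3 to 75.8). The level was 582 CPM (counts per 1000000 summed UMIs) at P7 and 363 CPM at P1, set beside 0.490 CPM in endothelial-like and 0.453 CPM in fibroblast-like P7 cells, where 0.433% and 0.738% of cells had a UMI. In the same cells Cd3g had a UMI in 7 of 42 at P7 and 14 of 149 at P1, and Cd3e in none. Among them were the 6 P7 and 11 P1 members that the rule chose for Cd3d and Cd3g, so these counts partly restate the rule. The exact binomial upper limits of the share with a Cd3e UMI were 8.41% at P7 and 2.45% at P1. They cover detection at median depths of 2802 and 3529 UMIs per cell and do not limit how many cells express the gene. Myeloid-like cells, named from macrophage genes, rarely had it, with Cd3d in 2 of 191 myeloid-like P7 cells and 0 of 161 at P1. Because of these cells, results below that rest on them are also given for the 147 P7 members with at least 3 markers. The P1 cells were not compared further.

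Possible doublets, cells with at least 2 defining markers of an endothelial, fibroblast or myeloid cell beside the T cell genes, made up 41 of the 165 P7 members. Endothelial markers were seen in 29, fibroblast markers in 20 and myeloid markers in 3. They were deep, with a median of 13190 UMIs per cell against 5226 in the other 124, and held 45.1% of the members' UMIs. The 10 fibroblast markers summed to 8624 CPM in all members, with the proteoglycan gene Dcn highest, and to 651 CPM in the 110 members with at least 3 markers that were not possible doublets. The 12 myeloid markers summed to 4819, 318 and 125 CPM in all members, in those with at least 3 markers and in those 110, with S100a9, Lyz2 and Ly6c2 highest in turn and Adgre1 at 0 in each. The 10 endothelial markers summed to 2217 CPM in all members and 432 CPM in the 110. The 6 mural cell markers, which did not enter the definition of a doublet, summed to 705 CPM in all members, 843 CPM in the 110 and 102 CPM in the T cells with recombination genes described below, so the 110 were not free of other cells' transcripts. Acta2, the smooth muscle actin gene, was the highest of them, and a single cell held 57.3% of the members' Acta2 UMIs. Of 10 thymic stroma genes, 7 were at 0 in the members, among them Foxn1, Psmb11, Aire and Prss16, against a floor of 2.27 CPM that a count of 0 allows. No member shared its barcode with the other library, where 13 kept barcodes occurred in both.

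The P7 members had a median of 6003 UMIs and 2029 genes per cell, ranging from 533 to 46406 UMIs. The 8346 other kept P7 cells had a median of 10241 UMIs. The closest comparison group was the 90 P7 cells that met the T cell part of the rule but had a UMI of Rag1, Rag2, Dntt or Ptcra, with a median of 3986 UMIs. No P1 cell met this second definition. Since a cell can miss a transcript by chance of sampling, 83 of these T cells with recombination genes were thinned to 2000 UMIs, and 11 of them then showed none of the 4 genes. Conversely, 9 of the 90 held exactly 1 UMI of the 4 genes and stand just outside the rule.

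Against all other P7 cells, the members were set apart by T cell signalling and homing genes. Over 6559 genes with a mean of at least 20 CPM in the 2 groups, 570 (8.69%) were more than 2-fold higher in the members and 1199 (18.3%) more than 2-fold lower, with a median log2 ratio of -0.13. The rule fixes this contrast, so the values below are a description. Ms4a4b, a tetraspan membrane protein of T cells, had the largest ratio of the genes tested, at 1371 CPM (1309 to 1436) in the members and 1.27 CPM in the other cells (log2 10.07). It had a UMI in 139 of 165 members, in 0.247% of endothelial-like and in 0.316% of fibroblast-like cells. Il7r, the receptor for the survival cytokine IL-7, was at 226 CPM (201 to 253) against 0.562 CPM (log2 8.64).

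Genes of the T cell receptor pathway were higher in nearly every case tested. Of 17 signalling genes measured, 16 were more than 2-fold higher and none lower, with a median log2 ratio of 6.23, or 2.55 against P7 cells with a UMI of Ptprc, the general leukocyte marker. Against those cells the ratio of Ms4a4b was 6.12, that of Il7r 4.88 and that of Lef1 3.73. The kinase Txk (343 CPM), which acts below the receptor, had a log2 ratio of 7.53. The costimulatory receptor Cd28 (312 CPM) and the adhesion receptor Cd2 (337 CPM) had ratios of 7.03 and 7.10. Fyn, a kinase shared with many cell types, was the exception, at 152 CPM in the members and 166 CPM in the other cells. T lineage transcription factors gave 8 of 11 genes higher and 1 lower. Lef1 was at 501 CPM against 3.55 CPM, Tcf7 at 444 against 8.13 CPM and Satb1, a chromatin organiser, at 704 against 21.6 CPM, whereas Id3 was the lower gene at 280 against 778 CPM.

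Homing genes were high, some of them shared with B cells. In the list of 14 naive T cell and egress genes, 12 were more than 2-fold higher than in the other P7 cells, with a median log2 ratio of 5.58. Against P7 cells with a Ptprc UMI this median was 2.34. Ccr7, which guides naive lymphocytes to lymph nodes, was at 602 CPM (561 to 645) in the members, 412 CPM in the 105 B-like cells (at least 2 of 4 fixed markers) and 0.664 CPM in endothelial-like cells. S1pr1, the receptor that draws lymphocytes out of tissue towards blood, was at 253 CPM in the members, 148 CPM in B-like and 175 CPM in endothelial-like cells. Klf2, the factor that switches on S1pr1, was among the highest transcripts at 2065 CPM but was also at 1186 CPM in the other cells, a log2 ratio of 0.80.

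Markers of other heart cells and of red blood cells were lower, and those of myeloid cells went both ways. More than 2-fold lower were 10 of 10 fibroblast, 9 of 10 endothelial, 5 of 6 mural, 6 of 6 cardiomyocyte and 3 of 3 erythroid markers tested, with none higher. Of 7 myeloid markers tested 3 were higher and 2 lower, and S100a8 (log2 3.58) and S100a9 (3.75), with UMIs in 15 and 12 members, were among the higher. These ratios were -2.64 and -4.96 when at least 3 markers were required and the members left out were counted among the other cells. Against the unchanged other cells, the S100a9 ratio of the 147 members with at least 3 markers was -4.72. The globins Hbb-bs and Hba-a1 were at 28.0 and 28.7 CPM in the members, against 1317 and 1091 CPM in the other cells. Eln, the elastic fibre gene, was at 99.1 against 891 CPM, and Cd74, which chaperones MHC class II in B cells and macrophages, at 9.83 against 93.1 CPM. All 10 genes tested from the MHC class I list were more than 2-fold higher in the members, with a median log2 ratio of 2.09. The list also holds Psmb8 and Nlrc5, which do not encode class I chains. H2-D1 was at 1707 CPM and B2m at 1129 CPM, against 431 and 376 CPM. Against P7 cells with a Ptprc UMI the B2m log2 ratio was 0.11 and the list median 0.76. Cell cycle genes did not separate the groups, with 0 of 24 past 2-fold either way and a median of 0.09.

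**Figure D2:**
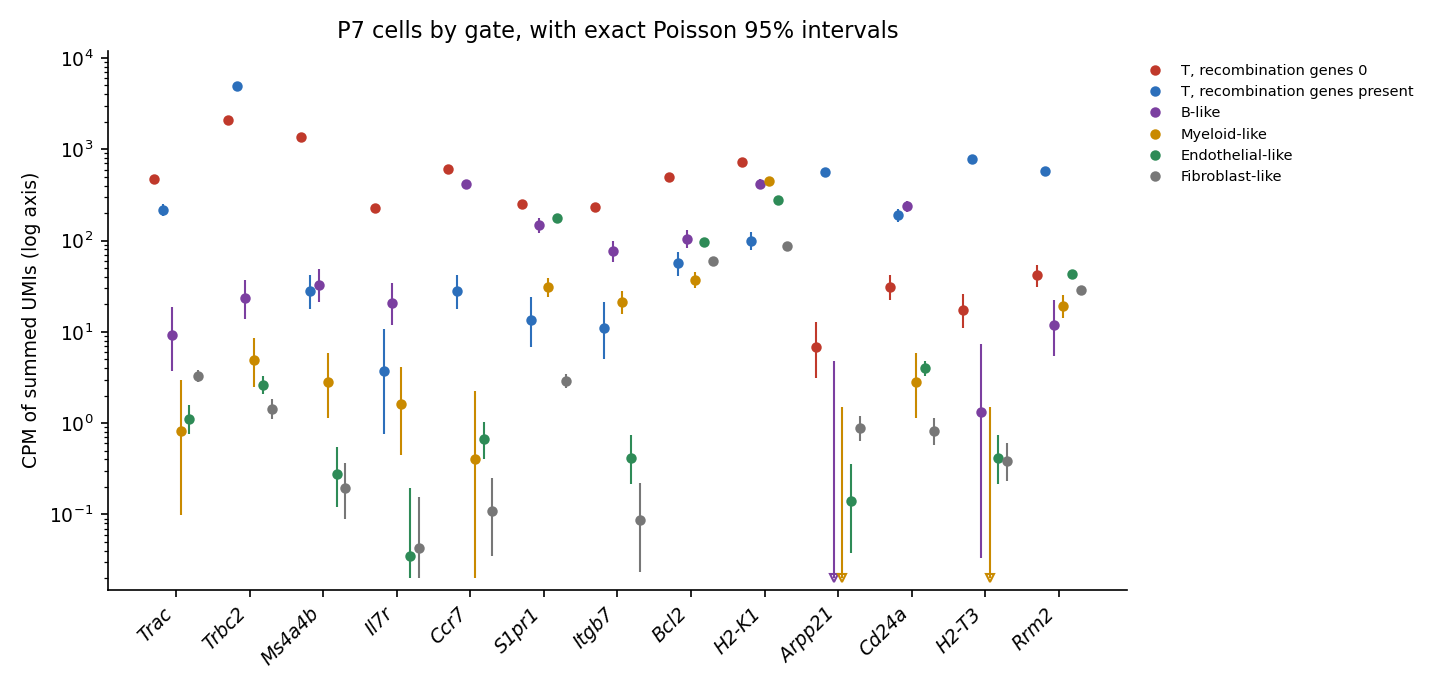
Level of 13 genes in 6 groups of P7 cells, as CPM of summed UMIs on a log axis, with exact Poisson 95% intervals as vertical lines and open triangles for genes at 0 UMIs. Ms4a4b is at 1371 CPM in T cells without recombination genes and 28.3 CPM in T cells with them, while Trbc2 is high in both and Arpp21 and H2-T3 are high in the latter.

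Compared with T cells that had recombination genes, the members were higher in homing genes and lower in thymocyte and proliferation genes. Of 6284 genes tested, 558 (8.88%) were more than 2-fold higher in the members and 686 (10.9%) more than 2-fold lower, with a median log2 ratio of -0.11. Without possible doublets among the members 511 were higher and 1040 lower, and after thinning 582 and 1289. Possible doublets were left out of the members only. The T cells with recombination genes were not filtered for them in any comparison. Markers of other cell types moved with this comparison. More than 2-fold higher were 4 of 4 mural markers tested (median 2.52), 3 of 10 endothelial (0.93) and 2 of 10 fibroblast markers (0.88), and none were lower. In the 110 members described above, without possible doublets, the endothelial markers summed to 432 CPM against 998 CPM in the unfiltered T cells with recombination genes. The fibroblast markers summed to 651 against 4806 CPM there, and the mural markers to 843 against 102 CPM. The part of such markers in the other ratios was not tested. All 14 naive and egress genes were higher, with a median of 3.41, which was 3.85 with only the 110 members that had at least 3 markers and were not possible doublets. Il7r had 299 UMIs in the members and 3 in the T cells with recombination genes, or 226 CPM (201 to 253) against 3.69 CPM (0.760 to 10.8), a log2 ratio of 5.72 (4.38 to 8.22). Ms4a4b was at 1371 against 28.3 CPM (log2 5.57), Ccr7 at 602 against 28.3 CPM (4.38), S1pr1 at 253 against 13.5 CPM (4.16), and Itgb7, an integrin chain used in gut homing, at 231 against 11.1 CPM (4.31). Gimap3, a GTPase of the lymphocyte survival family, was at 116 against 2.46 CPM (5.24). Ms4a and Gimap genes have close relatives, so reads could be split between them.

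Antigen presentation genes followed the same direction in part, and survival genes did not move as a group. Of 9 apoptosis and survival genes tested, 1 was more than 2-fold higher and 2 lower, with a median log2 ratio of -0.03. Bcl2, the survival factor of mature lymphocytes, was at 493 CPM (456 to 532) in the members and 56.5 CPM (41.4 to 75.4) in T cells with recombination genes (log2 3.11). Bcl2l1, its relative used by double-positive thymocytes, went the other way with a log2 ratio of -2.19. Of 11 genes tested from the MHC class I list, 5 were more than 2-fold higher and none lower. The class I genes H2-T3, H2-Q1 and H2-Q2 were outside this list and were lower, with log2 ratios of -5.46, -5.62 and -4.78. H2-K1 was at 733 against 99.5 CPM (log2 2.87), H2-D1 at 1707 against 248 CPM (2.78) and B2m, the common light chain, at 1129 against 272 CPM (2.05). The immunoproteasome subunit Psmb8 had a ratio of -0.47 and Psmb9 0.27. Samhd1, a nucleotide-degrading enzyme, was at 243 against 9.83 CPM, and Slfn1, a Schlafen family gene of quiescent T cells, at 150 against 3.69 CPM.

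Genes of immature thymocytes were lower. Leaving out the 4 genes of the rule, 12 of 13 tested were more than 2-fold lower and none higher, with a median log2 ratio of -3.35. Arpp21, a phosphoprotein gene of double-positive thymocytes, had 9 UMIs in 5 of the 165 members and 461 UMIs in 83 of the 90 cells with recombination genes, or 6.81 against 567 CPM (log2 -6.30). Cd24a, a surface protein lost on maturation, was at 31.0 against 190 CPM, and Ccr9, a receptor of thymocytes and of gut-homing cells, at 86.2 against 262 CPM. The nonclassical class I genes H2-T3 (17.4 against 779 CPM) and H2-Q1 (6.05 against 316 CPM) were also lower, with the reservation that H2-T and H2-Q genes have near-identical copies. Ly6d was at 8.32 against 417 CPM, and Mzb1, a chaperone of the secretory pathway, had 1 UMI against 100. Gzma, a protease of killer cells, had 0 UMIs in the members and 154 in 21 of the cells with recombination genes, at least 83.4-fold lower against a floor of 3 UMIs over the group. It went against its list, since of 4 effector and cytotoxic genes tested 3 were more than 2-fold higher and 1 lower, with a median log2 ratio of 2.26. Krt19 had 87 UMIs in the cells with recombination genes, all in 1 cell.

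Proliferation genes were lower as a group, with 23 of 24 cell cycle genes more than 2-fold lower and a median of -1.96. Rrm2, a subunit of ribonucleotide reductase, was at 41.6 against 579 CPM, the microtubule regulator Stmn1 at 241 against 1482 CPM and the histone variant H2afz at 659 against 2980 CPM. A UMI of Mki67 or Top2a was seen in 27 of 165 members (16.4%, 11.1 to 22.9) and 34 of 90 cells with recombination genes (37.8%, 27.8 to 48.6). At 2000 UMIs per cell the shares were 10.1% and 28.9%, next to 10.4% of endothelial-like and 5.96% of fibroblast-like cells.

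The receptor and its signalling genes were present in both groups at unequal levels. Trbc2 was at 2089.5 CPM (2012 to 2169) in the members and 4960 CPM (4808 to 5115) in T cells with recombination genes, and Trbc1 at 944 against 2426 CPM. Trac, the alpha chain gene that is rearranged last, was at 472 CPM (436 to 510) against 218 CPM (187 to 252), a log2 ratio of 1.11 (0.87 to 1.37). That ratio was 0.54 after thinning and 0.28 with each cell weighted equally. The Trbc2 ratio was -1.25, and -0.73 without possible doublets. Trbc1 and Trbc2 are close copies, so the division of reads between them is uncertain. Of 17 signalling genes outside the rule, 6 were more than 2-fold higher and 3 lower. Cd2 (2.16), Cd5 (1.42), an inhibitory receptor set by selection, and Cd28 (1.35) were higher, and Lat (-1.26), the adaptor below ZAP-70, and Themis (-1.21), a factor of positive selection, lower. The Lat ratio was -0.75 without possible doublets. Among the lineage factors Lef1 (1.27), Foxp1 (1.58) and Foxo1 (1.07), which drives Klf2 and Il7r, were higher and Bcl11b (-1.16, and -0.73 without possible doublets) and Ikzf3 (-1.03) lower.

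The highest ratios of all in this comparison came from a few cells. Granule genes S100a9 (log2 8.92), S100a8 (9.77), Ngp, Camp, Lcn2 and BC100530 were among the highest by fold. A single cell held 38.2% of the members' S100a9 UMIs and 61.0% of those of Ngp. With the 147 members that had at least 3 markers the S100a9 ratio was 0.45, and the 10 highest genes among those with a mean of at least 50 CPM, leaving out Gm and Rik genes, were Il7r, Ms4a4b, Gimap3, Slfn1, Samhd1, Ccr7, Itgb7, S1pr1, Actn2 and Il6ra. Il7r had a ratio of 5.74 there and Ccr7 of 4.43.

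**Figure D3:**
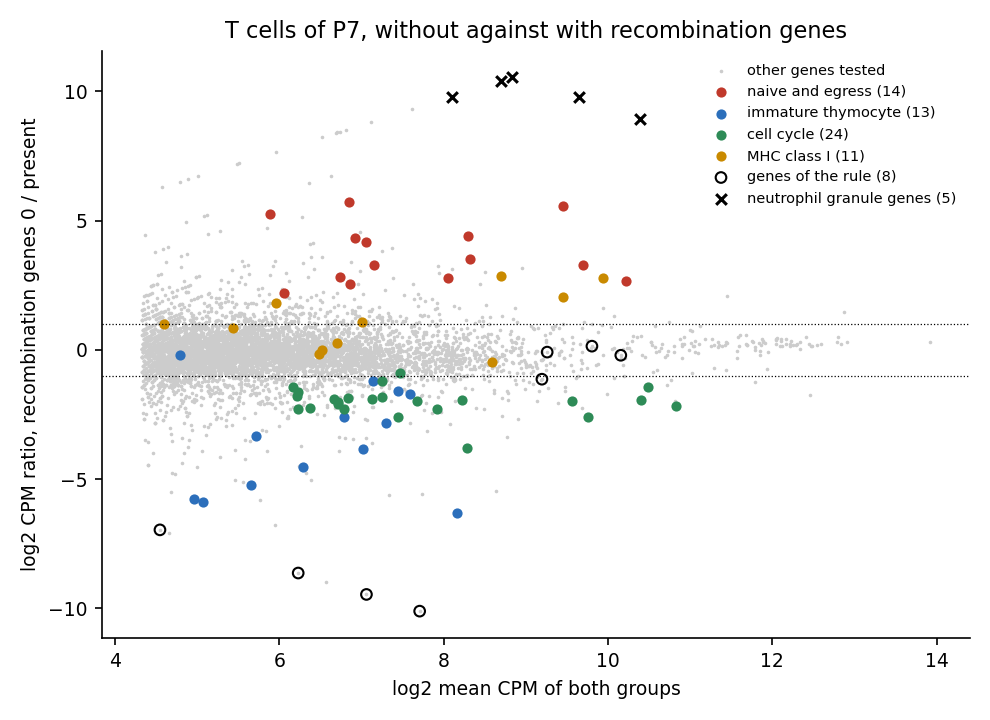
Each point is a gene tested, with the log2 mean CPM of both groups (horizontal) and the log2 CPM ratio of T cells without over T cells with recombination genes at P7 (vertical); dotted lines mark 2-fold. The 14 naive and egress genes lie above and 12 of 13 immature thymocyte genes below these lines, rings mark the genes of the rule, and crosses the granule genes carried by a few cells.

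Counted cell by cell, few cells of either group showed the maturation genes of the other. After thinning to 2000 UMIs, at least 2 of the 5 egress genes Ccr7, S1pr1, Il7r, Ms4a4b and Itgb7 were seen in 120 of 149 members (80.5%, 73.3 to 86.6) and in 1 of 83 T cells with recombination genes (1.205%, 0.0305 to 6.53). The share was 24.5% in B-like cells, 0.0972% in endothelial-like cells and 0 of 2819 fibroblast-like cells. At least 2 of 6 immature genes outside the rule (Arpp21, Endou, Dgkeos, Aqp11, Myb and Cd24a) were seen in 3 members (2.01%) and in 57 cells with recombination genes (68.7%). Both criteria were met by 1 member and no cell with recombination genes, and neither by 27 members (18.1%) and 25 cells with recombination genes (30.1%). Before thinning the egress shares were 84.2% and 2.22% and the immature shares 3.64% and 88.9%. In the 104 thinned members with at least 3 markers that were not possible doublets, 94 (90.4%) met the egress criterion. These genes were chosen with earlier results known, and the split by recombination genes itself sorts cells by maturity.

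**Figure D4:**
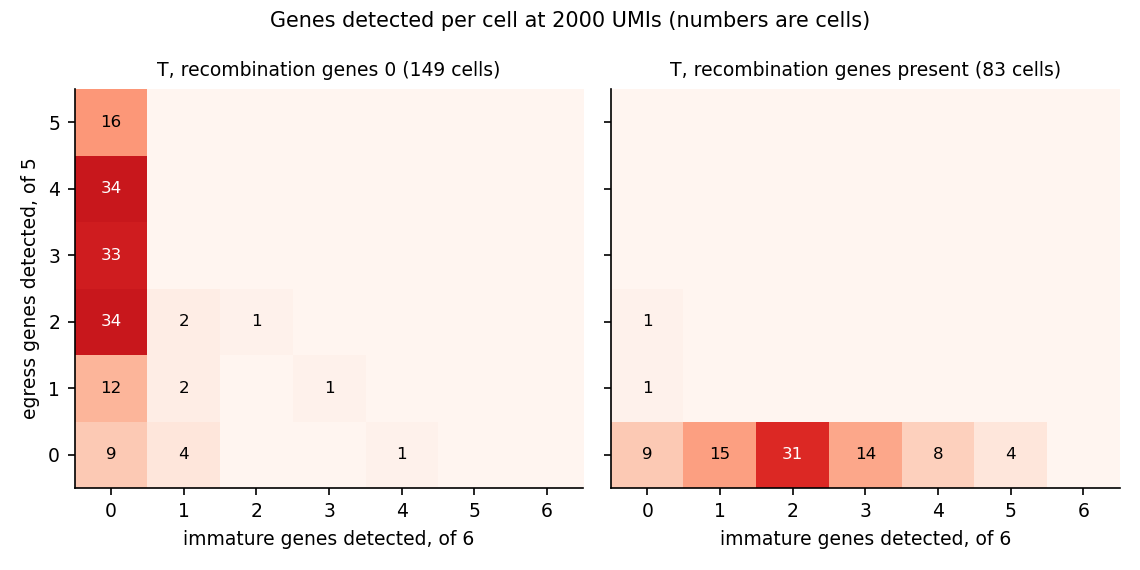
Number of cells by immature genes detected (horizontal, of 6) and egress genes detected (vertical, of 5) after thinning each P7 cell to 2000 UMIs, for 149 T cells without and 83 with recombination genes. The first group lies along the left edge, with 120 cells at 2 or more egress genes, and the second along the bottom, with 57 at 2 or more immature genes.

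Co-receptor genes divide helper from cytotoxic T cells, with CD4 on the former and CD8 on the latter. Of the 165 P7 members, 57 (34.5%, 27.3 to 42.3) had UMIs of Cd4 and none of Cd8a or Cd8b1, 38 (23.03%, 16.8 to 30.2) had only a Cd8 gene, 20 (12.1%, 7.56 to 18.1) had both and 50 (30.3%, 23.4 to 37.9) had neither. T cells with recombination genes were distributed differently, with 60 of 90 (66.7%, 55.9 to 76.3) having both, 26 only Cd8, 4 neither and none only Cd4. At 2000 UMIs, 37.3% of 83 such cells had both, 47.0% only Cd8 and 15.7% neither, so that Cd8 only was then the largest class. Among the members the class with neither was shallower, with a median of 4687 UMIs per cell against 6214 in the Cd4-only and 8128 in the Cd8-only class, and it held all 6 members rich in S100a9 and all 7 without a receptor constant gene. At 2000 UMIs the shares of members were 18.8% Cd4 only, 20.8% Cd8 only, 4.70% both and 55.7% neither. Any Cd4 UMI was seen in 0.211% of fibroblast-like and 0.0619% of endothelial-like cells, and any Cd8 UMI in 0.879% and 0.433%. The intervals of the 2 single classes overlapped at both depths, and the order of their shares, Cd4 above Cd8 in all UMIs, was the opposite at equal depth.

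The Cd8-only members were higher in some genes of the cytotoxic lineage. Over 3023 genes with a mean of at least 50 CPM, 137 (4.53%) were more than 2-fold higher and 87 (2.88%) more than 2-fold lower than in the Cd4-only members. Of 20 effector and cytotoxic genes, 2 reached that level, Nkg7 and Ctsw, and both were higher. Over the whole list, whatever the level, the exact interval of the ratio lay above 0 for 5 genes, among them Xcl1 with its 7 UMIs in 1 cell and Ccl5 with 26 UMIs in 4. It lay below 0 for 1 (Ccl3, with 0 UMIs against 7, all of them in possible doublets) and held 0 for 6, and 8 had no UMI in either class. The shares over all genes given above are for the 2-fold call and do not apply to these intervals. Nkg7, a granule membrane protein of killer cells, had 102 UMIs in 25 of 38 Cd8-only cells and 0 UMIs in 57 Cd4-only cells, at least 41.3-fold higher against the floor of 3 UMIs over the group. Ctsw, a cathepsin of cytotoxic cells, was at 195 CPM (153 to 244) against 39.0 CPM (23.1 to 61.6). Klrd1, which encodes the receptor CD94, had 34 UMIs in 11 cells against 2 UMIs in 1, a log2 ratio of 4.07, which was 2.83 without possible doublets (18 against 2 UMIs). Runx3, the transcription factor of the CD8 lineage, was at 103 CPM (73.0 to 140.3) against 43.3 CPM (26.5 to 66.9). Itgae, the integrin chain CD103, had 12 UMIs in 7 cells against none. The effector genes Gzma, Gzmb and Gzmk and the factor Eomes were at 0 UMIs in all 165 members, and Prf1 had 6 UMIs in the Cd8-only class.

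Some egress genes were higher in the Cd4-only class, although present in both. Of 14 naive and egress genes tested, 4 were more than 2-fold lower in the Cd8-only class and none higher, with a median log2 ratio of -0.77 beside 0.04 over all genes tested. S1pr1 was at 340 CPM (289 to 398) in Cd4-only and 113 CPM (81.9 to 152) in Cd8-only members, a log2 ratio of -1.58 for Cd8 over Cd4. Ccr7 was at 834 against 389 CPM (-1.10), Il7r at 297 against 126 CPM (-1.22) and Klf2 at 2689 against 1379 CPM (-0.96). Ccr9 went the other way, at 34.7 CPM in Cd4-only and 189 CPM in Cd8-only members (2.42), with UMIs in 6 and 24 cells. Izumo1r, the folate receptor 4 of helper and regulatory T cells, was at 86.7 against 26.3 CPM (-1.67). Cd24a had 9 UMIs in 6 Cd8-only cells and 0 in the Cd4-only class. Receptor genes were close, with log2 ratios of -0.22 (-0.51 to 0.07) for Trac, -0.07 (-0.21 to 0.07) for Trbc2 and -0.02 (-0.23 to 0.17) for Trbc1, but the Trbc1 ratio was 0.64 (0.39 to 0.88) without possible doublets. Possible doublets made up 18 of the 57 Cd4-only and 7 of the 38 Cd8-only members. The myeloid adaptor gene Tyrobp had 70 UMIs in 4 Cd4-only cells against 1 UMI in the Cd8-only class, and 2 against 1 without possible doublets. Without possible doublets the S1pr1 ratio was -1.70, that of Ccr7 -1.14, that of Il7r -1.34 and that of Ccr9 2.11. Zbtb7b, which directs the CD4 lineage, had 6 and 3 UMIs and could not be compared at this depth.

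**Figure D5:**
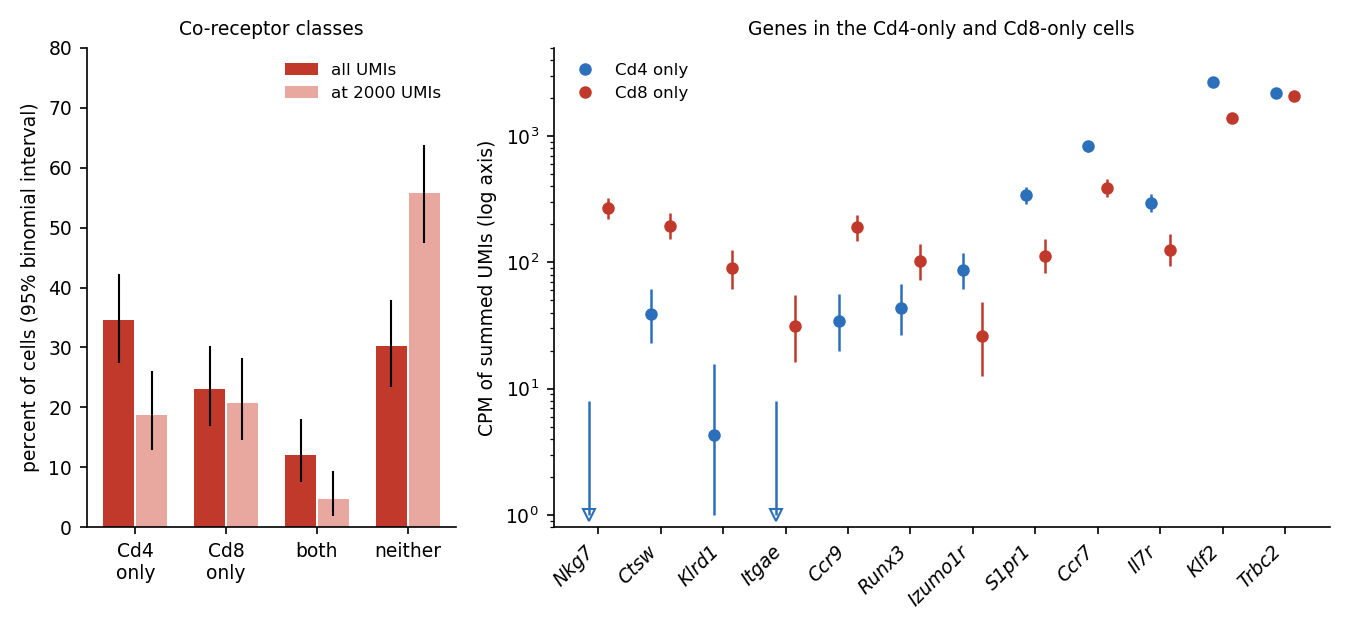
Left, percent of the P7 members in each co-receptor class with exact binomial 95% intervals, for all UMIs (165 cells) and at 2000 UMIs per cell (149 cells). Right, CPM of 12 genes on a log axis in the Cd4-only (57 cells) and Cd8-only (38 cells) members with exact Poisson 95% intervals and open triangles for 0 UMIs; Nkg7 and Itgae are at 0 in the former, and S1pr1, Ccr7 and Il7r are higher there.

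Members of smaller T cell subsets were few. Foxp3, the factor of regulatory T cells, had 7 UMIs in 6 members (3.64%, 1.35 to 7.75) and none in fibroblast-like, endothelial-like or B-like cells. A gamma or delta constant gene was seen in 8 members (4.85%, 2.12 to 9.33), of which 7 also had Trbc1 or Trbc2 and 6 Trac, and in 26 of 90 T cells with recombination genes. Such a UMI was seen in 0.879% of fibroblast-like and 0.155% of endothelial-like cells. At 2000 UMIs the shares were 2.68% of members (0.736 to 6.73), 15.7% of cells with recombination genes, 0.177% of fibroblast-like and 0.0324% of endothelial-like cells. The NK cell genes Ncr1, Klrb1c and Klre1 had a UMI in 1 member. Cd69, a receptor of recent activation and of selection, had a UMI in 41 members (24.8%) and in 1 of 90 cells with recombination genes. At 2000 UMIs these shares were 11.4% and 1.205%, with 23.5% in B-like and 0.0648% in endothelial-like cells. Ccl5 had 92 UMIs in a single member of the class with neither co-receptor, and 26 UMIs in 4 Cd8-only members. Trbc2 alone was seen in 53 members, Trbc1 alone in 4, both in 100 and neither in 8.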

How the data were processed

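The authors processed the 10x 3′ libraries with Cell Ranger 3.1.0 on the mouse build mm10 (GRCm38), as the submitters' processing notes give it, and deposited unnormalised UMI counts per gene and barcode, 63585504 UMIs over 7836 barcodes at P1 and 98346195 over 9077 at P7. From these counts, barcodes with 200 to 8000 genes and at most 20% mitochondrial UMIs were kept, and cells were assigned by marker genes, without clustering or a doublet caller. B-like cells needed 2 of 4 markers, and myeloid-like, endothelial-like and fibroblast-like cells 3 of 5.

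UMIs were summed per group of cells and given as CPM with exact Poisson intervals. Log2 ratios have 0.5 UMIs added to each sum and exact conditional binomial intervals, and shares have Clopper-Pearson intervals, all at 95%. A count of 0 was given a floor of 3 UMIs. The intervals were checked on simulated data (python 3.11.15, numpy 2.4.6, scipy 1.17.1, pandas 2.3.3). Those data were independent Poisson counts, which the intervals assume, so the check could not cover spread between cells. Genes named were those of the rule, the 5 highest in each of 28 lists, the 10 largest ratios in each direction above a mean of 50 CPM without mitochondrial, ribosomal protein and Gm or Rik genes, and the sex genes; other genes were named after their values had been seen. Members, lists and rules were chosen with earlier results of these data known. Gene positions are from GENCODE M21 and promoters from RefSeq. The alternatives numbered 11, with 2 added after seeing the data. Some genes are not reported here.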

Additional observations from a re-analysis of the deposited data

How the results depend on the processing

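With 1 library per age, only counting error could be estimated. No paired analysis was possible because each age had a single library. Of 436 alternative values for 46 single-gene ratios past 2-fold, 428 kept their sign and 412 stayed past 2-fold. Requiring 3 markers left 1 member at P1, with or without possible doublets, and requiring a receptor constant UMI left 2, in place of 14. Leaving out possible doublets, the P7 share fell from 1.94% to 1.46%, and to 1.29% with 3 markers as well. Thinning gave 18.8% Cd4 only, 4.70% both and 55.7% neither.

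Against other P7 cells, 277 genes were higher and 596 lower with a mean of at least 50 CPM, 7438 and 3368 with any UMI, and 308 and 637 when only cells with a Ptprc UMI were compared. Against T cells with recombination genes, 269 were higher and 363 lower at 50 CPM, and 2352 and 2543 with any UMI. There were 1040 lower without possible doublets among the members, also with 3 markers, and 1289 after thinning. With any UMI the median of all genes turned from -0.13 to 0.26 against other cells and from -0.11 to 0.0032 against T cells with recombination genes. That setting adds genes with few UMIs. Ratios have 0.5 UMIs added to each gene's sum, and the members held 1322313 UMIs in all against 96109694 in the other cells. A gene with no UMI in the members and few in the other cells is therefore counted as more than 2-fold higher. The number of such genes among the 7438 was not counted, and the cause of either turn was not tested.

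Against other P7 cells, the naive and egress list median of 5.58 became 5.99 without possible doublets, 5.998 with 3 markers as well, 5.10 thinned, 4.75 with cells weighted equally and 2.34 against cells with a Ptprc UMI. The MHC class I median became 2.44, 2.51 with 3 markers as well, and 0.76 against cells with a Ptprc UMI. The cell cycle median became -0.40 with cells weighted equally, -0.43 against cells with a Ptprc UMI and -0.33 without possible doublets and with 3 markers. The immature thymocyte median, over 4 genes, was 2.73 and turned to -0.25 at 50 CPM and -0.26 against cells with a Ptprc UMI. It was 1.15 without a mitochondrial limit, 1.90 thinned, 1.60 with cells weighted equally, 0.54 with any UMI and 3.28 without possible doublets and with 3 markers. The cause of these shifts was not tested.

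Single genes past 2-fold that turned against other P7 cells were H2-T3 (-2.66) and Cd24a (-1.25) when compared with cells that had a Ptprc UMI, and the neutrophil genes. S100a8 turned from 3.58 to -2.64 with 3 markers, -3.35 with 3 markers and no possible doublets and -0.44 against cells with a Ptprc UMI. S100a9 turned from 3.75 to -4.96, -4.63 and -0.25 in the same settings. Where 3 markers were required, members with fewer were counted among the other cells. Against the unchanged other cells, the S100a9 ratio with 3 markers was -4.72. Of genes within 2-fold of other P7 cells, Arpp21 went from 0.41 to -3.50, Rrm2 from 0.16 to -1.30 and Mki67 from 0.11 to -0.41 against cells with a Ptprc UMI.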

Other observations

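Receptors for cytokines and chemokines were mostly higher in the P7 members than in T cells with recombination genes. Of 11 genes tested, 7 were more than 2-fold higher and 2 lower (median log2 ratio 1.52). Over all 6284 genes of this comparison, 8.88% were higher and 10.9% lower, with a median of -0.11. Il2rg, the common chain that pairs with the IL-7 receptor, was at 206 CPM against 71.3 CPM, and Il6ra at 162 against 8.60 CPM. General leukocyte genes were nearer in level, with 4 of 14 higher and none lower. Ptprc was at 560 against 340 CPM, and Tmsb4x, which encodes an actin-binding peptide, was the most abundant of them at 10971 CPM in the members, 3980 CPM in T cells with recombination genes and 12573 CPM in B-like cells. Actn2, known as a Z-disc protein of muscle, was at 157 CPM in 75 members, 8.60 CPM in T cells with recombination genes and 4.08 CPM in the other P7 cells, and at 253 CPM in the 110 members with at least 3 markers that were not possible doublets, where the 8 cardiomyocyte markers summed to 65.5 CPM.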
